A study of Mus musculus with 8 samples.

Results

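The genes of the extracellular matrix and of its integrin receptors were followed in cells of the mouse inner medullary collecting duct line IMCD exposed to hypertonic medium. They were chosen by gene symbol alone: collagens, laminins, integrins, and a fixed set of matrix glycoproteins, elastic-fibre proteins, lysyl oxidases and proteoglycans. This gave 97 of the 15288 genes in the raw counts table, of which 93 passed a filter on low counts and were tested. The cells had been grown toward confluence in high-glucose DMEM with fetal bovine serum and antibiotics. Both groups were then held for 12 h in DMEM without serum, either as such (control, replicates 1 to 4) or with 100 mmol NaCl added (NaCl, replicates 5 to 8), the amount being given without a volume. No label says whether the 4 libraries of a group came from separate cultures, so the p-values measure the spread between these libraries, which may be technical. Every library comes from a single cell line, and levels are of bulk RNA, in which fewer cells of a kind and less RNA per cell cannot be told apart.

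Epithelial cells of the renal tubule rest on a basement membrane, a sheet built from a laminin network and a type IV collagen network that are bridged by nidogens and by heparan sulfate proteoglycans such as perlecan and agrin. Fibrillar collagens, fibronectin, microfibrils and elastic-fibre proteins make up the interstitial matrix, and lysyl oxidases cross-link collagen and elastin. Integrins are paired alpha and beta subunits in the cell membrane that bind these proteins and connect them to the actin cytoskeleton. The alpha subunit largely sets the ligand, and the beta subunit encoded by Itgb1 serves most laminin, collagen and fibronectin receptors.

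Total counts per library ran from 35.29 M to 47.57 M, and the 97 genes took between 1.89 and 2.15% of them. The line is labelled as collecting duct, and keratin genes were present while some defining markers were at or near 0. Of 7 epithelial markers 6 had counts, with Krt18 at 217 ± 25.9 CPM and Epcam at 27.3 ± 3.18 CPM in controls (CPM, counts scaled to a common library total; mean ± SD, n = 4), but Cdh1, which encodes E-cadherin, was at 0.195 CPM. Of these 6, 2 were called higher with NaCl and none lower, where 34.1% of all tested genes were called. They were Cldn4, from 44.0 to 77.3 CPM, and the sparse Cdh1. The water channel gene Aqp2, which defines principal cells, was at 0.0241 CPM in controls and 0.305 CPM with NaCl. Vim, a mesenchymal intermediate filament gene, was at 2205 CPM and Cdh2 at 115 CPM in controls. Of the principal cell markers tested, Avpr2 was higher with NaCl but near 0 in both groups (0.108 ± 0.122 CPM in controls, 0.646 ± 0.357 CPM with NaCl). Gata3 (8.10 to 5.97 CPM) and Hoxb7 (71.4 to 60.2 CPM) were lower with NaCl. Endothelial markers summed to at most 0.87 CPM in any library, and leukocyte markers to between 13.0 and 17.9 CPM in controls and between 21.3 and 26.1 CPM with NaCl. Of the leukocyte markers Ptprc rose, from 4.05 to 13.5 CPM, and Csf1r and Cd68 were not called.

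Changes ran in both directions. Of the 93 tested genes, 23 were higher and 24 lower with NaCl (edgeR quasi-likelihood test, threshold 0.05 for the adjusted p), together 50.5%, where 34.1% of all 14024 tested genes were called. By direction the background was 16.9% higher and 17.2% lower. Control and NaCl ranges were fully separate for 46 of these genes, and for 33.4% of all tested genes. The median log2 fold change (NaCl over control) of the 93 was -0.06, and their median absolute log2 fold change was 0.26, beside 0.0029 and 0.14 over all tested genes. The 5 genes that were called and moved 2-fold or more were all collagens, where the share over all genes was 3.2%. The counts summed over all 97 genes were 20929 ± 688 CPM in controls and 19812 ± 838 CPM with NaCl.

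**Figure D1:**
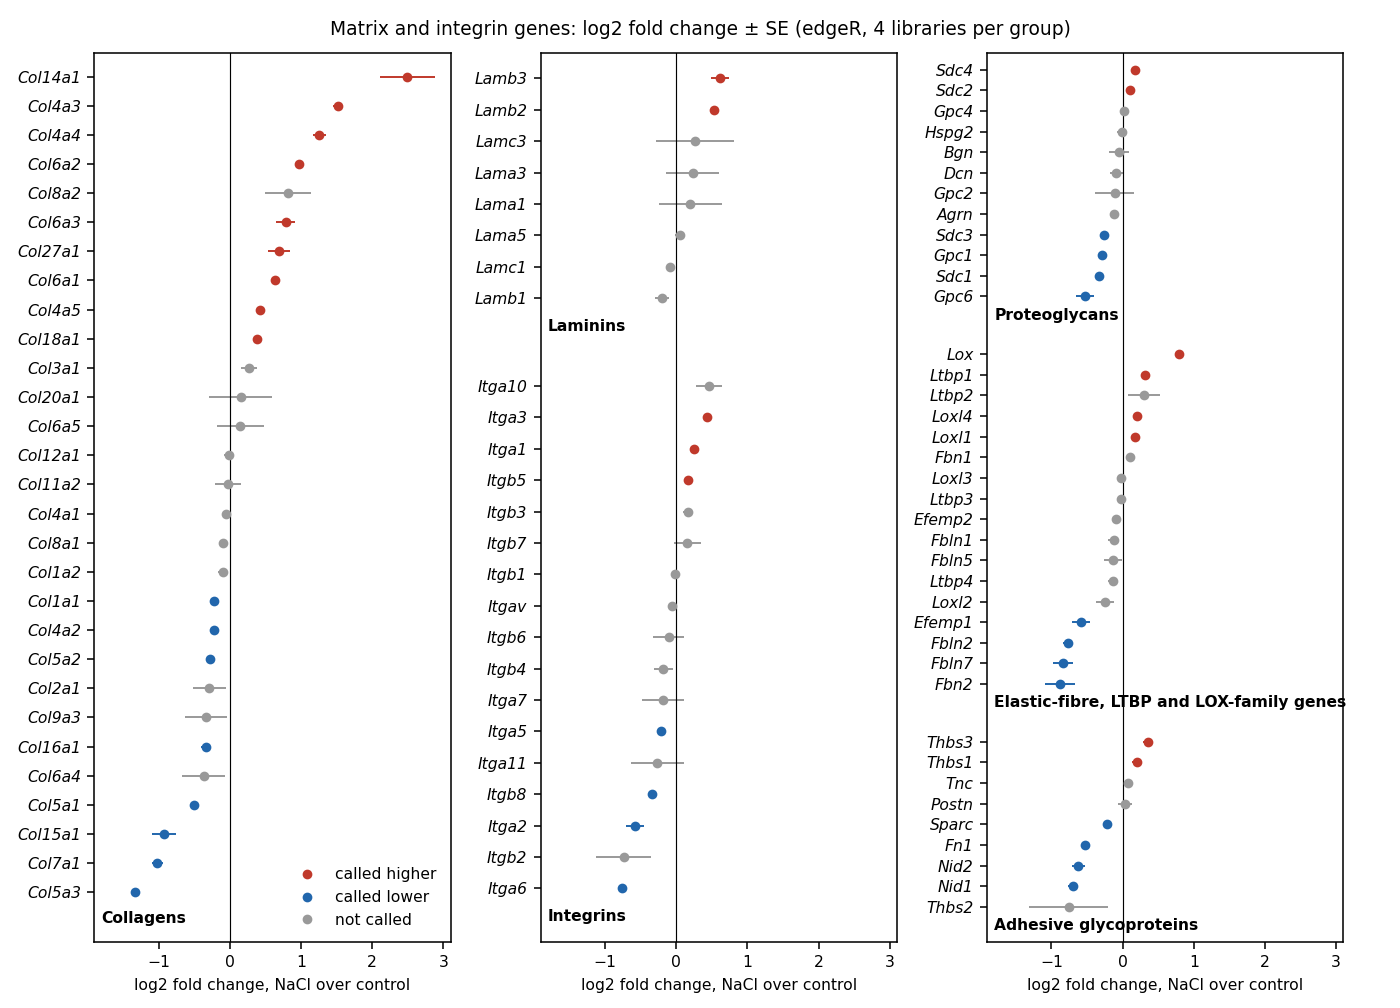
Log2 fold change (NaCl over control, horizontal axis) with its standard error for the tested matrix and integrin genes reported here, by family; red and blue mark genes called higher and lower, grey those not called. Collagens spread most widely, from -1.33 for Col5a3 to 2.50 for Col14a1, and no laminin gene was called lower.

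**Figure D2:**
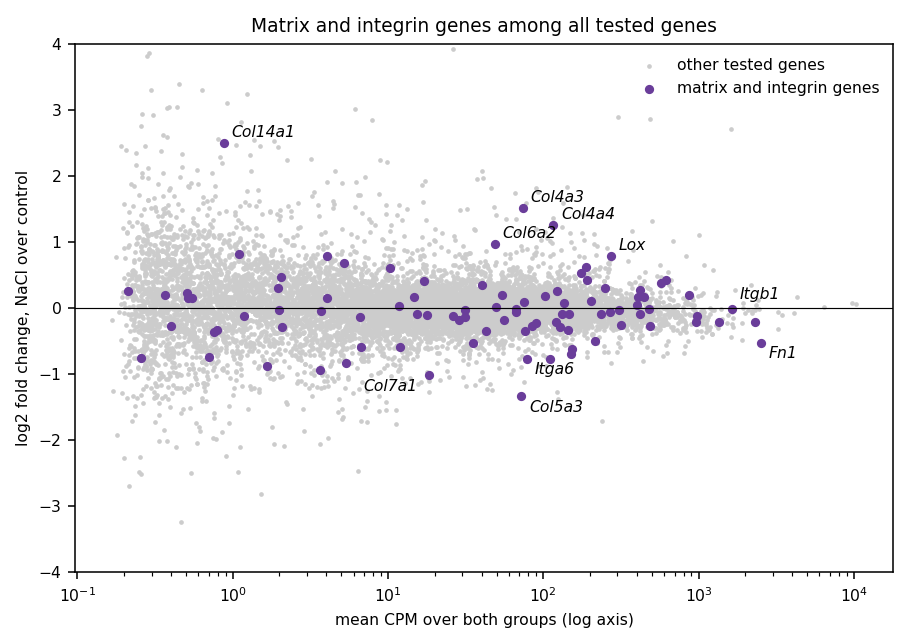
Log2 fold change (NaCl over control) against mean CPM over both groups (log axis) for all tested genes (grey; 12 genes lie outside the plotted range of -4 to 4) and the 93 matrix and integrin genes (purple). Fn1 and Itgb1 are among the abundant genes, and Col14a1 is the low-count gene with the highest value of the group.

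The transcript levels of the type IV collagen genes shifted relative to each other. Type IV collagen chains assemble into alternative networks: the chains of Col4a1 and Col4a2 form the network found in nearly all basement membranes, and those of Col4a3, Col4a4 and Col4a5 form a further network that is known from the glomerular and parts of the tubular basement membrane of the kidney. The genes of the second network rose and those of the first did not. The genes of these networks lie in head-to-head pairs that share the stretch between their start sites, and the start regions are printed here because the 2 genes of the Col4a3 pair rose together and those of the Col4a1 pair did not. The windows run from 250 bases before to 50 bases after a RefSeq start of the gene (GRCm38.p6, the assembly also named mm10), read 5′ to 3′ on the gene's own strand. Capitals mark matches on either strand to GGGCGG (the GC box), CCAAT, or TGGAAA (the core of the tonicity-responsive element bound by Nfat5), which can overlap each other.
Col4a4 (chr1:82586800-82587099, minus strand): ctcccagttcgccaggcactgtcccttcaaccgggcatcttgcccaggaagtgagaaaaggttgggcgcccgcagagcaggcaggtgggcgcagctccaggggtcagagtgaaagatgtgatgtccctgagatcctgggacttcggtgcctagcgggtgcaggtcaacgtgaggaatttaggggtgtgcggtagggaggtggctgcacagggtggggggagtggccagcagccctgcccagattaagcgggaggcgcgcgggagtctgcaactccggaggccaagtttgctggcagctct
Col4a2 (chr8:11312555-11312854, plus strand): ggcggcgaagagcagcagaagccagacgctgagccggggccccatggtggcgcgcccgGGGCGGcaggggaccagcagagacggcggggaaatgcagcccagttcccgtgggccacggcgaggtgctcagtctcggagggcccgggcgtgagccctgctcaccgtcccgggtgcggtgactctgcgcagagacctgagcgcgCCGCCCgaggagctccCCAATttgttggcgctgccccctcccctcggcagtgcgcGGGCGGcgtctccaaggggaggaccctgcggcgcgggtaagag
Col4a5 (chrX:141475169-141475468, plus strand): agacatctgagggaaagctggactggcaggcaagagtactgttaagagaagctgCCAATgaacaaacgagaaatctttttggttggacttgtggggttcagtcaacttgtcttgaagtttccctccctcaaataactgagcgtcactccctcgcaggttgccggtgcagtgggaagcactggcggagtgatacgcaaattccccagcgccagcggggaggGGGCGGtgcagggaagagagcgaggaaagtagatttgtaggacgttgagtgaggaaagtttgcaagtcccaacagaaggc
The annotated start of Col4a3 (GENCODE M21) falls at position 179 of the Col4a4 window, 72 bases from the start of Col4a4. The start of Col4a1 falls at position 272 of the Col4a2 window, 21 bases from that of Col4a2, and the first exons of this pair overlap by 22 bases. The Col4a2 window holds 3 GC boxes and 1 CCAAT, the Col4a5 window 1 of each, and the Col4a4 window none of the 3 motifs. Over all 32817 windows of this length, 35.6% hold GGGCGG, 37.4% CCAAT and 21.4% TGGAAA on either strand. These are matches of letters and no measure of binding.

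Col4a3 (ENSMUSG00000079465, chr1:82586921-82722059) was at 32.2, 37.8, 43.3 and 39.9 CPM in control replicates 1 to 4 and at 112, 109, 104 and 113 CPM in NaCl replicates 5 to 8. Every NaCl library was more than 2 times as high as every control. The log2 fold change was 1.52 (SE 0.072, edgeR adjusted p = 6.68e-09), a fold of 2.86. Its partner Col4a4 (ENSMUSG00000067158, chr1:82448423-82586849) had 56.6, 65.2, 72.0 and 79.8 CPM in controls and 170, 164, 157 and 163 CPM with NaCl, again without overlap. Its log2 fold change was 1.26 (SE 0.092, adjusted p = 8.74e-06), a fold of 2.39. A transcript antisense to Col4a3, C430014B12Rik, overlaps 5.65% of its exons, and whether the counting used strand is not given in the sources used here.

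Col4a5, which encodes the chain shared by this network, rose less, from 164 ± 6.77 to 220 ± 6.61 CPM (log2 fold change 0.43, SE 0.037, edgeR adjusted p = 1.60e-07). Col4a6, its head-to-head neighbour on chromosome X, had at most 12 counts in any library and was not tested. On the other side, Col4a1 was at 68.5 ± 5.41 CPM in controls and 65.8 ± 2.38 CPM with NaCl (log2 fold change -0.06, SE 0.052, adjusted p = 0.42), and its groups overlapped. Col4a2 fell from 96.7 ± 2.59 to 82.8 ± 2.36 CPM (log2 fold change -0.22, SE 0.037, adjusted p = 1.97e-04). Per kilobase of exon, the summed level of Col4a3, Col4a4 and Col4a5 was between 1.35 and 1.58 times that of Col4a1 and Col4a2 in the control libraries, and between 2.71 and 2.83 times with NaCl. This ratio, like those below for Lamb2 and Itga3, was chosen with the values known and is a description.

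**Figure D3:**
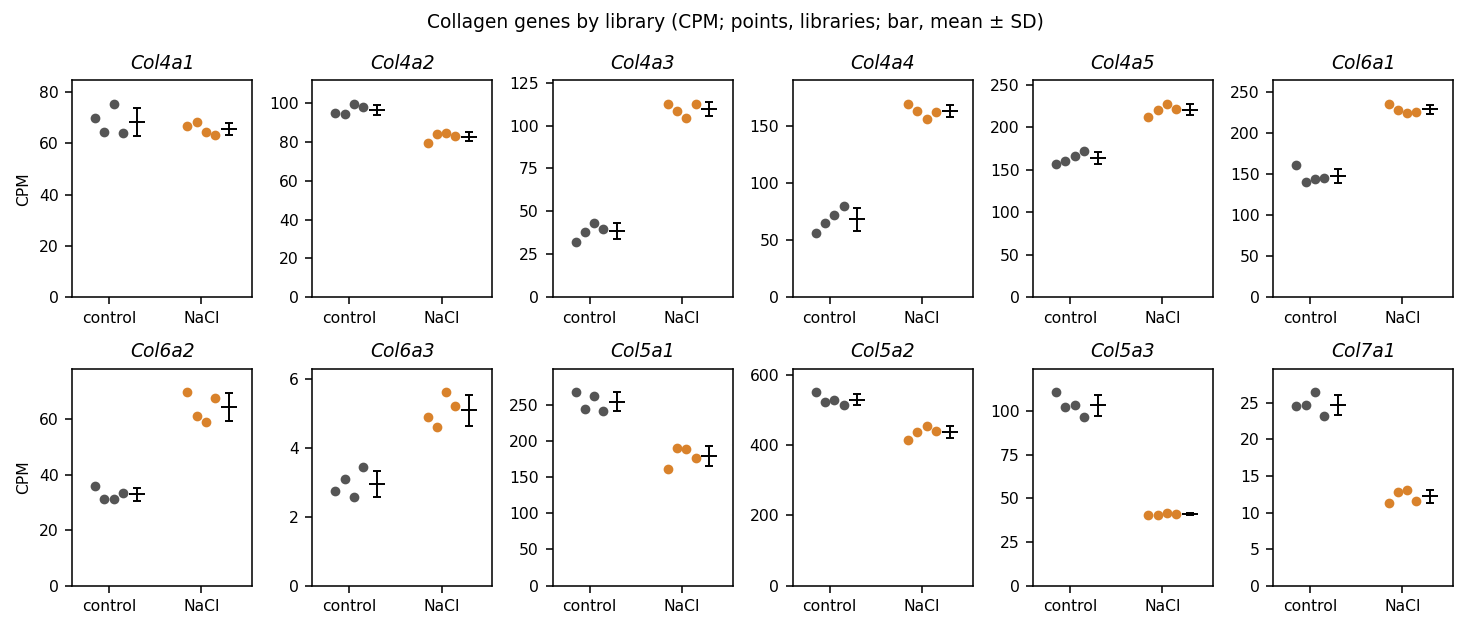
CPM by library (vertical axes from 0) for the type IV, VI, V and VII collagen genes in control (grey) and NaCl (orange) libraries; bars are mean ± SD, n = 4. The groups overlap for Col4a1 alone of the 12 genes shown, and Col4a3 lies at 104 CPM or more with NaCl against at most 43.3 CPM in controls.

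Laminins are heterotrimers of an alpha, a beta and a gamma chain. Of the 9 laminin genes tested, 3 were higher, none was lower and 6 were not called, a share of 33.3% called, near the 34.1% of all genes. Lamb2 and Lamb3 were among the higher genes. Lamb2 (ENSMUSG00000052911, chr9:108479736-108490530) was at 147, 138, 143 and 148 CPM in controls and at 218, 216, 206 and 193 CPM with NaCl. The groups were well apart, and the log2 fold change was 0.53 (SE 0.040, edgeR adjusted p = 3.35e-08). The encoded chain replaces that of Lamb1 in laminins of, among others, the glomerular basement membrane.

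Lamb1, the most abundant laminin gene per kilobase of exon, was at 919, 968, 1103 and 1105 CPM in controls and 766, 861, 920 and 1009 CPM with NaCl (log2 fold change -0.20, SE 0.096, edgeR adjusted p = 0.148). The groups overlapped, and within each group the libraries with the higher numbers had more Lamb1. Without NaCl replicate 8 Lamb1 was called lower (log2 fold change -0.27, adjusted p = 0.0369), as it was with the library number as a linear drift in the fit (-0.66, adjusted p = 7.91e-12). The ratio of Lamb2 to Lamb1 per kilobase of exon was 0.231 ± 0.0215 in controls and 0.387 ± 0.0646 with NaCl (SD, n = 4 each). The genes of the remaining chains of the common trimer, Lama5 (log2 fold change 0.05, SE 0.067, adjusted p = 0.625) and Lamc1 (-0.08, SE 0.037, adjusted p = 0.102), were not called. With the linear drift the log2 fold change of Lama5 turned to -0.20.

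Lamb3 rose from 8.18 ± 1.48 to 12.5 ± 1.56 CPM (log2 fold change 0.61, SE 0.13, edgeR adjusted p = 0.00143). It encodes a chain of the laminin that anchors stratified epithelia, whose alpha chain gene Lama3 had between 12 and 32 counts per library. With a linear drift over the library number in the fit, Lamb3 had a log2 fold change of 6.61e-05 and was not called. No library held more than 25 counts of Lama1 or 16 of Lamc3.

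Both nidogen genes fell. Nid1 (nidogen, ENSMUSG00000005397, chr13:13437551-13512269) was at 208, 178, 177 and 178 CPM in controls and 101, 121, 120 and 116 CPM with NaCl. All NaCl libraries lay below all controls, and the log2 fold change was -0.69 (SE 0.067, edgeR adjusted p = 1.18e-05). Its paralog Nid2 (ENSMUSG00000021806) was at 165, 177, 204 and 200 CPM in controls and 106, 116, 129 and 134 CPM with NaCl (log2 fold change -0.62, SE 0.093, adjusted p = 0.00108), also without overlap. With a linear drift over the library number Nid1 had an adjusted p of 0.0511 at a similar log2 fold change of -0.65, and Nid2 was still called (-1.07, adjusted p = 5.38e-15). Sequence found in other annotated genes makes up 6.07% of the Nid1 and 8.96% of the Nid2 transcript.

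Perlecan and agrin, the large heparan sulfate proteoglycans of the basement membrane, were not called. Hspg2 (perlecan) was at 481 ± 43.7 CPM in controls and 479 ± 34.9 CPM with NaCl (log2 fold change -0.01, SE 0.068, edgeR adjusted p = 0.957). Agrn was at 1015 ± 96.1 and 936 ± 58.6 CPM (-0.12, SE 0.067, adjusted p = 0.21). It was called lower without control replicate 1 (-0.17, adjusted p = 0.0373) and with the linear drift (-0.46, adjusted p = 3.30e-08). By contrast Col18a1, which encodes a basement membrane collagen that carries heparan sulfate, rose from 496 ± 33.7 to 648 ± 30.6 CPM (0.39, SE 0.047, adjusted p = 1.33e-05), and its relative Col15a1 fell from 4.81 to 2.52 CPM (-0.93, SE 0.17, adjusted p = 4.44e-04). Both kept their call with the linear drift, at a smaller value for Col18a1 (0.16, adjusted p = 0.0355) and a larger one for Col15a1 (-1.68, adjusted p = 3.36e-05).

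Over all collagens, 17 of 29 tested genes were called, or 58.6% beside 34.1% of all tested genes, 9 higher and 8 lower, and the median change was -0.03 (log2). Of the 5 collagen VI genes tested, Col6a1, Col6a2 and Col6a3 rose. Type VI collagen is a beaded-filament protein found next to basement membranes. Col6a1 (chr10:76708792-76726168) was at 160, 140, 144 and 145 CPM in controls and 235, 228, 224 and 225 CPM with NaCl, and Col6a2 (chr10:76595762-76623630) at 35.7, 31.1, 31.2 and 33.2 CPM and 69.7, 61.1, 59.0 and 67.5 CPM. All NaCl values lay above all control values for both. The log2 fold changes were 0.63 (SE 0.040, edgeR adjusted p = 4.26e-09) and 0.97 (SE 0.061, adjusted p = 4.17e-09). Col6a3, on chromosome 1 and far less abundant, rose from 2.95 ± 0.383 to 5.08 ± 0.437 CPM (0.78, SE 0.14, adjusted p = 2.74e-04), a call that a linear drift over the library number removed (0.52, adjusted p = 0.186). Col6a4 (-0.37, adjusted p = 0.38) and Col6a5 (0.15, adjusted p = 0.77), at under 1 CPM in each library, were not called.

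Col6a1 and Col6a2 lie in tandem on the minus strand, and their start sites are 102538 bases apart, so that unlike the type IV pairs they do not share a start region. The promoter windows of this co-varying pair are printed for comparison, with the same motifs in capitals.
Col6a1 (chr10:76725995-76726294, minus strand): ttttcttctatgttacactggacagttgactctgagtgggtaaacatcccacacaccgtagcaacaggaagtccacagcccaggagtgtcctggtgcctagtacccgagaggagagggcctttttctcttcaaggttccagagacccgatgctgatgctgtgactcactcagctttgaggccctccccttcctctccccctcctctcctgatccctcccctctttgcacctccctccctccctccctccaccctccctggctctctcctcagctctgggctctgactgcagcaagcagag
Col6a2 (chr10:76623355-76623654, minus strand): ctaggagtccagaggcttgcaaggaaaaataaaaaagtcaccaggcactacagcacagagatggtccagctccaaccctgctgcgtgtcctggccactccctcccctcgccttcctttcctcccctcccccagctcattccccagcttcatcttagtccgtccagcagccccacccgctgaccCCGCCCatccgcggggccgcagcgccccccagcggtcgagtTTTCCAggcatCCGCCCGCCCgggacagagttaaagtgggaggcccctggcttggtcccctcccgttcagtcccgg
The Col6a2 window, around one of its RefSeq starts, holds 3 matches to the GC box and 1 to TGGAAA, and the Col6a1 window none of the motifs. The RefSeq starts used here (76726044 for Col6a1, 76623404 for Col6a2) lie downstream of the GENCODE starts used for the distance (76726168 and 76623630). Part of each window before the RefSeq start therefore lies within the gene as annotated by GENCODE.

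The collagen V genes fell together. Type V collagen co-assembles with type I collagen and starts its fibrils. Col5a3 (ENSMUSG00000004098, chr9:20770050-20815067) was at 111, 103, 103 and 96.5 CPM in controls and at 40.3, 40.6, 41.9 and 41.3 CPM with NaCl. The NaCl libraries lay close together and far below the controls. The log2 fold change, -1.33 (SE 0.045, edgeR adjusted p = 1.62e-12), was the lowest of all 93 genes. Col5a1 fell from 254 ± 13.2 to 179 ± 13.8 CPM (-0.50, SE 0.053, adjusted p = 5.62e-06) and Col5a2 from 529 ± 16.0 to 437 ± 16.6 CPM (-0.28, SE 0.036, adjusted p = 1.50e-05).

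Type I and III collagen genes, markers of fibroblasts in tissue, were expressed in this line, and of these Col1a1 alone was called. Col1a1 was at 2652, 2399, 2601 and 2317 CPM in controls and 1951, 2213, 2309 and 2118 CPM with NaCl, which is 380 and 327 CPM per kilobase of exon, the highest level of any collagen. It was called lower (log2 fold change -0.21, SE 0.054, edgeR adjusted p = 0.00808), and the call was lost with the library number centred within its group (-0.21, adjusted p = 0.0666) or as a linear drift (-0.20, adjusted p = 0.437), at a log2 fold change that hardly moved. Col1a2 (-0.09, SE 0.066, adjusted p = 0.303) and Col3a1 (0.27, SE 0.11, adjusted p = 0.112) were not called. Of the fibroblast and pericyte markers outside the matrix genes, 6 of 8 had counts, 3 higher and 2 lower (34.1% of all tested genes were called), and they summed to between 132 and 150 CPM in controls and between 167 and 184 CPM with NaCl. Dpt rose from 0.063 to 2.60 CPM, Pdgfrb from 37.5 to 61.1 CPM and Acta2 from 59.9 to 72.7 CPM. Des fell by 1.42 and Pdgfra by 0.67 on the log2 scale, Tagln was not called, and Thy1 and Lum were not among the genes counted. The part of such cells or states in the collagen values was not tested.

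Of the remaining collagens, Col7a1, which encodes the anchoring fibril collagen, fell from 24.6, 24.7, 26.5 and 23.2 CPM to 11.4, 12.8, 13.1 and 11.6 CPM (log2 fold change -1.02, SE 0.072, edgeR adjusted p = 1.52e-08). Col14a1, a fibril-associated collagen, had 23, 10, 9 and 4 counts in controls and 41, 57, 86 and 58 counts with NaCl. Its log2 fold change of 2.50 (SE 0.38, adjusted p = 9.27e-05) therefore rests on few counts, although the CPM values did not overlap. Col16a1 fell (-0.34, adjusted p = 3.21e-04) and Col27a1 rose (0.69, adjusted p = 0.0022). Both calls were lost with the linear drift (-0.32, adjusted p = 0.0693 for Col16a1; 0.23, adjusted p = 0.612 for Col27a1). Col8a1 and Col12a1, which were well expressed, were not called (log2 fold changes -0.09 and -0.01, adjusted p = 0.255 and 0.921), nor were the sparse Col2a1, Col8a2, Col9a3, Col11a2 and Col20a1. Col22a1, Col23a1 and Col4a6 had at most 12 counts in any library and were not tested, nor was the integrin gene Itgae with at most 10.

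The common beta subunit gene Itgb1 was not called, while several alpha subunit genes were. Itgb1 was at 1598, 1643, 1668 and 1654 CPM in controls and 1585, 1620, 1656 and 1657 CPM with NaCl. The ranges nearly coincided, and the log2 fold change was -0.01 (SE 0.031, edgeR adjusted p = 0.833), a sign that turned with unscaled library totals (3.28e-04) and without NaCl replicate 5 (0.0029). Of 17 tested integrin genes 3 were higher and 4 lower, or 41.2%, a share near the 34.1% of all tested genes. Among the alpha subunits 5 of 9 were called, and among the beta subunits 2 of 8. The difference between these shares was not tested.

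The laminin-binding alpha subunits moved in opposite directions. Itga3 (ENSMUSG00000001507, chr11:95044474-95076801), whose product binds laminin with the Itgb1 chain and is known for its role in the collecting duct and glomerulus, was at 503, 490, 557 and 561 CPM in controls and 688, 695, 720 and 743 CPM with NaCl. It rose without overlap, and its log2 fold change was 0.43 (SE 0.045, edgeR adjusted p = 1.88e-06). With the linear drift over the library number the rise was smaller but still called (0.22, adjusted p = 0.00237). Itga6 (ENSMUSG00000027111, chr2:71745616-71858416), whose product pairs with the Itgb1 or Itgb4 chain, was at 99.5, 98.9, 97.4 and 99.4 CPM in controls and 52.8, 57.8, 62.7 and 59.1 CPM with NaCl. It fell by 0.76 on the log2 scale (SE 0.046, adjusted p = 2.21e-09), the lowest value of any integrin gene. Per kilobase of exon the ratio of Itga3 to Itga6 was 8.44 ± 0.618 in controls and 19.4 ± 1.06 with NaCl (SD, n = 4 each). Itga7, another laminin receptor subunit, was at 45.3, 47.4, 72.5 and 74.2 CPM in controls and 34.3, 44.6, 61.7 and 69.7 CPM with NaCl, a spread within groups that exceeded the difference between them (adjusted p = 0.682). With the linear drift in the fit Itga7 was called lower (-1.45, adjusted p = 1.34e-04), as was Itgb4 (-0.82, adjusted p = 2.02e-06).

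Of the collagen-binding subunit genes Itga1, Itga2, Itga10 and Itga11, the first rose, the next fell and the others were not called. Itga1 rose from 112 ± 7.21 to 134 ± 6.06 CPM (log2 fold change 0.25, SE 0.046, edgeR adjusted p = 4.64e-04), and Itga2, its neighbour on chromosome 13 with 20996 bases between the genes, fell from between 7.13 and 9.03 CPM to between 4.46 and 6.06 CPM (-0.58, SE 0.13, adjusted p = 0.00197). Of the receptors for fibronectin and other RGD-containing ligands, Itga5 fell (130 ± 6.92 to 112 ± 7.09 CPM; -0.21, SE 0.048, adjusted p = 0.00277). Itgb8 fell as well, from 47.7 ± 3.99 to 37.7 ± 1.84 CPM (-0.34, SE 0.060, adjusted p = 3.37e-04), while Itgb5 rose from 419 ± 13.5 to 472 ± 11.7 CPM (0.17, SE 0.034, adjusted p = 7.91e-04). Itgav, the alpha subunit that pairs with both, was not called (-0.06, SE 0.054, adjusted p = 0.409). With the linear drift Itga2 (-1.17, adjusted p = 8.12e-05) and Itgb8 (-0.61, adjusted p = 4.28e-06) were further below the controls. The calls of Itga1 and Itga5 were lost with the linear drift (0.09, adjusted p = 0.408 for Itga1; -0.17, adjusted p = 0.21 for Itga5). Itgb3 (13.8 ± 0.608 CPM in controls, 15.5 ± 1.13 CPM with NaCl, adjusted p = 0.103) and Itga10 (1.72 ± 0.298 and 2.38 ± 0.089 CPM, adjusted p = 0.0573) did not overlap between the groups and yet missed the threshold. Sequence found in another annotated gene makes up 34.5% of the Itga10 transcript, so that its counts are uncertain. Itgb6, Itgb7, Itgb2 and Itga11 overlapped and were not called.

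**Figure D4:**
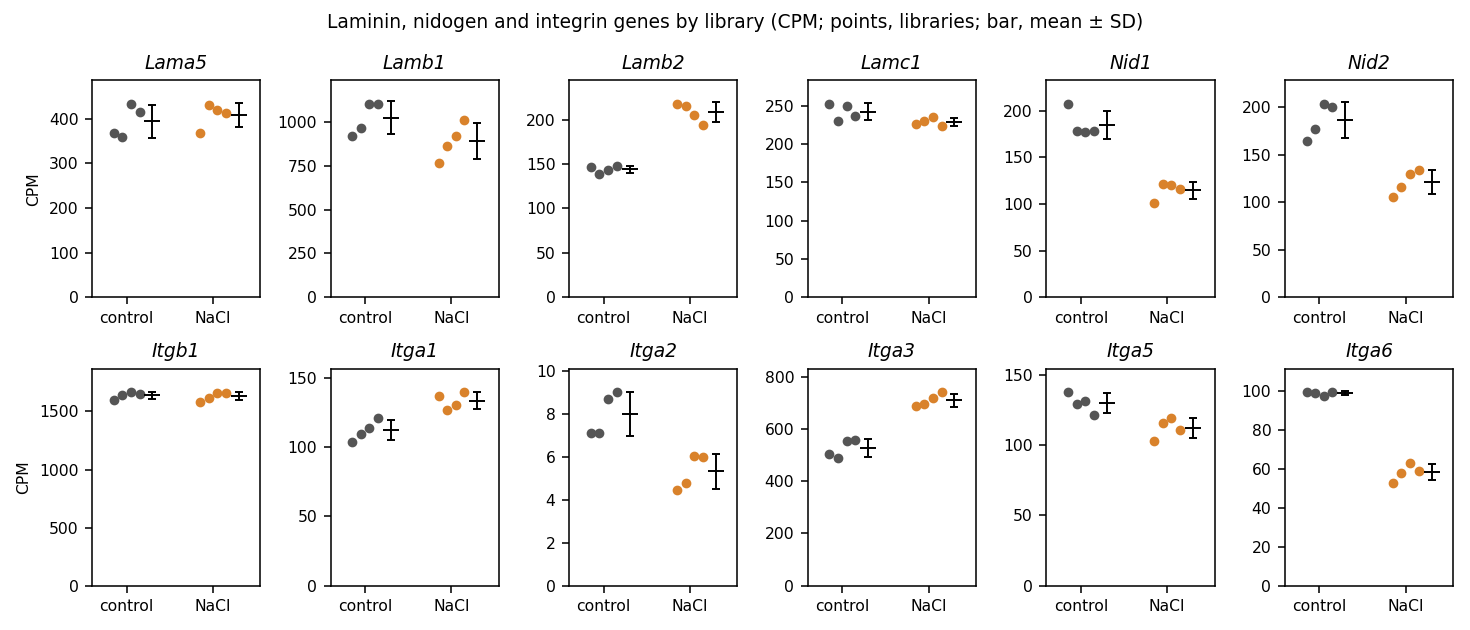
CPM by library (vertical axes from 0) for laminin, nidogen and integrin genes in control (grey) and NaCl (orange) libraries; bars are mean ± SD, n = 4. Itgb1 lies between 1585 and 1668 CPM in all 8 libraries, whereas Itga3 is higher and Itga6, Nid1 and Nid2 are lower in every NaCl library than in every control.

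Adhesive and matricellular glycoproteins were called in 6 of 9 genes (66.7%, beside 34.1% of all tested genes), 4 lower and 2 higher. Fn1, which encodes fibronectin (ENSMUSG00000026193, chr1:71585520-71653200), was at 2990, 2751, 3202 and 2967 CPM in controls and 1829, 2110, 2112 and 2228 CPM with NaCl. Its groups did not overlap (log2 fold change -0.52, SE 0.060, edgeR adjusted p = 3.45e-05). Sparc, which encodes a collagen-binding protein of high level per kilobase of exon, fell from 1449 ± 100 to 1252 ± 59.4 CPM (-0.21, SE 0.047, adjusted p = 0.00281), a call lost with the linear drift (-0.04, adjusted p = 0.759). Summed over the 9 genes, the level was 5786 ± 205 CPM in controls and 4684 ± 236 CPM with NaCl, and Fn1 accounted for most of the difference.

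The thrombospondin genes Thbs1 and Thbs3 went the other way. Thbs3 rose from 35.3 ± 3.49 to 45.1 ± 3.24 CPM (log2 fold change 0.35, SE 0.069, edgeR adjusted p = 9.72e-04), and its value was larger with the linear drift (0.65, adjusted p = 6.96e-06). Thbs1, an activator of latent TGF-beta, was at 720, 765, 874 and 877 CPM in controls and 886, 903, 929 and 1006 CPM with NaCl (0.20, SE 0.066, adjusted p = 0.0357). The lowest NaCl library lay just above the highest control. Leaving out control replicate 1 or 2 or NaCl replicate 6, 7 or 8 removed the call (adjusted p from 0.0516 to 0.0993), and with a linear drift the log2 fold change was -0.12. Tnc (tenascin), Postn (periostin) and the sparse Thbs2 were not called, with adjusted p-values of 0.198, 0.834 and 0.318.

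Of 17 elastic-fibre, latent TGF-beta binding and cross-linking genes, 4 were higher and 4 lower, or 47.1% beside 34.1% of all tested genes. Lox, Ltbp1, Loxl1 and Loxl4 were higher, and Fbln2, Fbln7, Efemp1 and Fbn2 were lower. Lox, which encodes lysyl oxidase (ENSMUSG00000024529), was at 212, 191, 203 and 194 CPM in controls and 368, 348, 344 and 328 CPM with NaCl. Each NaCl library exceeded each control by more than 1.5-fold, and the log2 fold change was 0.80 (SE 0.041, edgeR adjusted p = 3.04e-10). Ltbp1 rose from 224 ± 7.28 to 278 ± 2.59 CPM (0.31, SE 0.033, adjusted p = 1.66e-06).

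Loxl2, the family member with the highest level per kilobase of exon in controls, was at 367, 339, 332 and 332 CPM in controls and 228, 284, 355 and 288 CPM with NaCl. NaCl replicate 7 alone lay among the controls, and the gene was not called (log2 fold change -0.25, SE 0.13, edgeR adjusted p = 0.195). Without that library Loxl2 was called lower (-0.36, adjusted p = 0.00554), and without NaCl replicate 5 the value was -0.15 (adjusted p = 0.174). With the linear drift it was -0.41 (adjusted p = 0.408). Sequence found in other annotated genes makes up 46.1% of the Loxl2 transcript, so that its counts are uncertain. Loxl1 overlapped between the groups and lost its call when control replicate 2, 3 or 4 or NaCl replicate 5 or 6 was left out, and with the linear drift it was called at a larger value (0.47, adjusted p = 6.64e-06).

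Among the lower genes, Fbln2 fell from 150, 133, 140 and 135 CPM to 70.5, 84.0, 87.8 and 84.3 CPM (log2 fold change -0.77, SE 0.062, edgeR adjusted p = 7.99e-07). Fbln7 (6.89 ± 0.499 to 3.85 ± 0.867 CPM; -0.84, SE 0.14, adjusted p = 2.25e-04) and Fbn2 (2.16 ± 0.124 to 1.17 ± 0.247 CPM; -0.88, SE 0.21, adjusted p = 0.00337) were at low levels. With the linear drift Fbn2 missed the threshold at a larger change (-1.19, adjusted p = 0.0535), and the call of Loxl4 was lost (0.21, adjusted p = 0.0972). Efemp1 also fell (-0.59), more so with the linear drift (-1.16, adjusted p = 8.90e-06). Fbn1, the main fibrillin gene here, was at 72.3 ± 5.85 and 77.4 ± 2.64 CPM (adjusted p = 0.16), and an annotated gene on the opposite strand, Gm9913, overlaps 20.1% of its exons. Ltbp3, the best expressed of the latent TGF-beta binding genes after scaling to length, was at 310 ± 17.1 and 304 ± 6.54 CPM (adjusted p = 0.652). Ltbp2, Ltbp4, Fbln1, Fbln5, Efemp2 and Loxl3 were not called either, with log2 fold changes between -0.14 and 0.30.

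Cell surface proteoglycans act as co-receptors for matrix proteins and growth factors. Of 12 proteoglycan genes, 2 were higher and 4 lower, where 34.1% of all tested genes were called. No call reached 2-fold, which 3.2% of all tested genes did. The syndecan genes split: Sdc1 fell from 161 ± 7.81 to 128 ± 2.55 CPM (log2 fold change -0.33, SE 0.038, edgeR adjusted p = 5.09e-06) and Sdc3 also fell (-0.27, SE 0.053, adjusted p = 0.00111), a call lost with the linear drift (-0.22, adjusted p = 0.14). Sdc4, the syndecan of focal adhesions and the one with the highest level per kilobase of exon, was at 381 ± 26.0 and 429 ± 30.5 CPM (0.17, SE 0.056, adjusted p = 0.0299), with overlap. Sdc2 was at 196 ± 6.26 and 210 ± 3.09 CPM (0.10, SE 0.033, adjusted p = 0.023). The calls of Sdc2 and Sdc4 were each lost in 4 of the 8 fits that left out a library: for Sdc2 without control replicate 2 or 3 or NaCl replicate 5 or 7 (adjusted p from 0.0566 to 0.0901), and for Sdc4 without control replicate 1 or 2 or NaCl replicate 7 or 8 (0.0743 to 0.0943). Under a linear drift Sdc4 had a log2 fold change of -0.14. Of the glypicans, Gpc6 fell from 41.6 ± 3.75 to 28.7 ± 5.27 CPM (-0.53, SE 0.13, adjusted p = 0.00937, and -1.09 with the linear drift) and Gpc1 from 141 ± 3.46 to 115 ± 2.04 CPM (-0.29, SE 0.033, adjusted p = 4.43e-06), the latter with 18.9% of its exons overlapped by Ankmy1 on the opposite strand. Dcn, Bgn, Gpc2 and Gpc4 were not called, and sequence found in another annotated gene makes up 56.3% of the Gpc2 transcript.

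Genes that neighbour each other moved both alike and apart. Of 9 pairs of these genes within 200 kb of each other, Col4a3 with Col4a4 and Col6a1 with Col6a2 were both called higher. Itga1 with Itga2 and Col1a1 with Itga3, which lie 91432 bases apart, were called in opposite directions. Col3a1 and Col5a2, neighbours 24615 bases apart, had log2 fold changes of 0.27 and -0.28, the first not called. The other pairs held at least 1 gene that was not called or not tested.

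Genes that make, process or read the matrix were examined from lists drawn up by function. The counts below stand beside 34.1% called over all tested genes, 16.9% higher and 17.2% lower. Of 24 tested genes for collagen biosynthesis and secretion, 9 were lower and 3 higher, and the median change was -0.08 (log2). The collagen chaperone gene Serpinh1 fell from 1300 ± 54.4 to 1039 ± 26.6 CPM (-0.32, edgeR adjusted p = 2.77e-06) and Ppib fell by 0.25 on the log2 scale, while P3h4 rose by 0.50. The procollagen proteinase genes Bmp1 (-0.19) and Tll1 (-1.73) were lower.

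Of 25 genes of the integrin adhesion complex, 7 were higher and 3 lower, a share near the 34.1% called over all tested genes. Tln2 rose from 144 ± 14.3 to 283 ± 8.04 CPM (log2 fold change 0.97, edgeR adjusted p = 5.45e-08), while Tln1, which encodes the main talin, was not called (-0.04, adjusted p = 0.412). Tensin genes were higher for Tns1 (0.42) and Tns3 (0.59), and Parvb was lower (-0.46). Of 11 tested genes for non-integrin matrix receptors and basement membrane partners, 5 were higher and 1 lower (over all tested genes, 16.9% were higher and 17.2% lower). Npnt, which encodes nephronectin, a ligand of the integrin of the developing kidney, rose from 16.7 ± 1.29 to 65.6 ± 3.76 CPM (1.98, adjusted p = 5.58e-13). The laminin receptor gene Dag1 (0.31) and the collagen receptor gene Ddr1 (0.30) rose as well. The gene called lower was Rpsa, which fell from 1263 ± 30.4 to 986 ± 30.7 CPM (-0.36, edgeR adjusted p = 3.66e-07). Bcam and Ddr2 were not called.

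Of 17 genes of TGF-beta signalling, which is known to induce matrix genes, 6 were higher and 8 lower, beside 34.1% called over all tested genes. Ccn2 fell by 0.74 (edgeR adjusted p = 8.82e-04) and Tgfb2 by 0.86 on the log2 scale, while Tgfbi rose from 16.7 ± 1.43 to 47.4 ± 3.88 CPM (adjusted p = 1.22e-10) and Tgfbr2 rose by 0.40. Among 9 epithelial and mesenchymal factors, Vim fell from 2205 ± 55.4 to 1581 ± 82.8 CPM (-0.48, adjusted p = 5.58e-08), Cdh2 rose (0.25), and Cdh1 was at 0.195 ± 0.116 and 0.535 ± 0.170 CPM (adjusted p = 0.0254). Fn1, the collagen V genes and Serpinh1 thus stood lower in the same libraries as Vim and Ccn2. Col4a3, Col4a4, Lamb2, Itga3 and Npnt stood higher. The basement membrane genes Nid1, Nid2 and Col4a2, however, also stood lower, as did Itga6 and Col7a1. Lox, Col6a1, Col6a2, Cdh2, Tgfbi, Pdgfrb and Acta2 also stood higher. Whether these movements are connected was not tested.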

How the data were processed

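RNA-seq of 8 libraries (4 control, 4 NaCl) was analysed from the count table deposited by the authors. Per the submitters' processing notes, Trim Galore 0.6.7, STAR and DESeq2 1.34.0 were used with the build mm10. The counting tool, its strand setting and the annotation are not given in the sources used here. The deposited normalized table was not used.

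Genes were kept by edgeR's expression filter (minimum count 10), scaled by TMM and tested with edgeR 4.0.16 (R 4.3.3; quasi-likelihood test, robust), NaCl against control, with Benjamini-Hochberg adjustment over all 14024 tested genes. CPM values use TMM-scaled library totals. In simulated data with 14000 genes tested, 98 genes were changed by 0.5 and 101 by 1 (log2). Of these, 70.4% and 90.1% were recovered, and 10.6% of calls at the threshold of 0.05 were false. In the data 34.1% of tested genes were called, a far larger share than the simulation changed, so these rates may not carry over. Positions and exon lengths are from GENCODE M21 (GRCm38, the build mm10), and promoter windows from RefSeq GRCm38.p6, which held 66 of the 97 genes. Replicate pairs all differed by more than counting noise, and in both groups libraries further apart in number differed more. The chi-square of counts per degree of freedom was 6.50 for control replicates 1 and 2 and 20.8 for 1 and 4. It was 8.49 for NaCl replicates 5 and 6 and 22.9 for 5 and 8. The spread behind the p-values thus holds a part that follows the library number, whose cause was not tested. Alternatives covered scaling, filtering, the test (DESeq2 1.42.0, limma 3.58.1), the threshold, the library number and leaving out each library.

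In each of 6 families the text names the 2 genes with the highest CPM per kilobase and the 2 highest and 2 lowest called changes without overlap, and others where a subunit pairing or a small count asked for it. Members, lists and ratios were chosen with earlier results of these data known. Some genes counted in the totals are not reported here by name.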

Additional observations from a re-analysis of the deposited data

Results flagged for a closer look

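Nid1 in control replicate 1 stood apart from the other controls, at 207.7 CPM against 177 to 178.2 CPM. Without that library the log2 fold change was -0.63 (edgeR adjusted p = 3.59e-07). Ltbp1 in NaCl replicate 8 was at 274.5 CPM against 279.6 to 279.7 CPM in the other NaCl libraries, a small gap beside a very narrow range, and its log2 fold change without that library was 0.32. Both were found by the gap of the extreme library relative to the range of its group, which chance exceeds in about 1 in 20 groups. Of 64 groups examined 2 exceeded it, where 3.2 would do so by chance.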

How the results depend on the processing

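Of 47 called matrix and integrin genes, 43 kept their call in all 8 fits that left out a library (the exceptions were Thbs1, Sdc4, Loxl1 and Sdc2), and 29 in all 19 alternatives but the test against a fold of 1.5. In all 19 the 8 genes Col4a3, Col4a4, Col5a3, Col6a2, Col7a1, Fbln2, Itga6 and Lox kept it. Tested against a fold of 1.5, 328 of all genes were called (65.5% higher), and 5 matrix and integrin genes were higher and 4 lower. At an adjusted p under 0.01, 3145 genes were called in place of 4789. Leaving out a library gave 4071 to 4634 calls over all genes, and 20 to 24 higher and 24 to 26 lower among the matrix and integrin genes. Library numbers run from 1 to 8 across the groups, so an order of handling and the treatment cannot be told apart; with a linear drift in the fit 32 of the 47 calls were kept and 9 added (16 higher, 25 lower, 3382 calls over all genes), and with the number centred within each group 46 were kept and 7 added (6030 calls over all genes). Under that drift Thbs1 was at -0.12, Lama5 at -0.20 and Sdc4 at -0.14, each of opposite sign. Itgb1 turned sign with library totals alone (3.28e-04) and when NaCl replicate 5 was left out, where the values over the 8 such fits ran from -0.0246 to 0.0029. The cause was not tested. Over 607 refits of the named genes, 551 kept direction and call, 44 lost the call, 7 gained one and 5 changed sign. With at most 25 counts in a library, changes in Lama1 and Lamc3 of the size seen in other laminin genes may not be detectable at this depth. No paired analysis was run because the labels pair no library of one group with a library of the other. Some genes, such as Lamb1 and Itga7, rose with the library number in both groups. Whether the libraries were matched in that order is not given and was not tested.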
